A study of Arabidopsis thaliana with 16 samples.

Results

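DFR, BAN and UGT80B1 are 3 Arabidopsis genes whose loss gives pale or transparent seed coats, and their transcript levels were followed across the regions of the seed at the heart stage of the embryo. They were taken by name, with earlier results of these data known, and are 3 of the 13350 genes that the platform annotation names alone on at least 1 of the 22746 Arabidopsis probe sets of the ATH1 array. Each is measured by 1 probe set. DFR is AT5G42800 (also called TT3), BAN is AT1G61720 and UGT80B1 is AT1G43620 (also called TT15).

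All material came from plants of the strain Ws-0, and the labels give no further genotype and no treatment. Laser microdissection of fixed, paraffin-embedded sections gave whole seeds (2 arrays), embryo proper (2), chalazal endosperm (3), peripheral endosperm (2), micropylar endosperm (2), chalazal seed coat (3) and seed coat (2), which is 16 arrays in 7 groups. Plants were 38 to 46 days old, siliques measured 1.2 to 1.5 cm and embryos 52 to 85 micrometres, and each amplification used 5 to 6 ng of RNA. The replicates are labelled biological, but which plants each came from is not stated, so the p-values speak for the spread of these arrays alone, which may be partly technical.

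Proanthocyanidins are condensed flavonoid polymers that accumulate in the endothelium, the innermost layer of the seed coat, which faces the endosperm, and turn brown as the seed dries. Dihydroflavonol 4-reductase (DFR) makes leucoanthocyanidins, which feed both anthocyanins and proanthocyanidins, and anthocyanidin reductase, encoded by BAN (BANYULS), commits the flow to the epicatechin units of proanthocyanidins. UGT80B1 is no flavonoid enzyme: it attaches glucose to membrane sterols, and its mutants were found through their pale seeds.

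Signal is in arbitrary units as deposited, and levels of different probe sets cannot be set against each other. As a background bound, each array was given the signal below which 95% of its 27 Bacillus control probe sets lay, from 31.1 to 161.5 over the arrays. The summed signal of 5 seed coat markers was 36227 to 42318 in the seed coat and 10639 or lower in every other compartment. Most of it was DELTA-VPE and SBT1.7, with their highest means, 22440 and 15370, in the seed coat. BETA-VPE averaged 779 there and 4515 in the chalazal seed coat, and MUCI21 58.2 and 382.6. MUCI10 averaged 625 in the seed coat and 2845 in the peripheral endosperm. The summed signal of 6 embryo markers was 4699 to 4825 in the embryo proper and 3755 or lower elsewhere. Of these 6, BBM, PHV and CR4 had their highest mean in the embryo proper. LHW did not, averaging 1683 there and 2607 in the chalazal seed coat, nor did CLV3 (54.5, and 96.9 in the chalazal endosperm) or YAB3 (60.9, and 126.8 in the micropylar endosperm). The 3 endosperm markers summed to between 863 and 1918 on the 7 endosperm arrays and to between 587 and 1886 on the 5 seed coat arrays, so the ranges overlapped. No marker was listed at 0 on any array. The chalazal endosperm arrays stood apart from all other groups, with correlations across probe sets of 0.435 to 0.656 to their arrays and of 0.822 or more among themselves. They also had the highest single background bound, at 161.5, and the highest 3′ to 5′ ratio of the GAPDH control, at 24.7, both in replicate 1. That ratio was also high in chalazal seed coat replicate 1 (19.5) and micropylar endosperm replicate 1 (18.9), and 11.9 or lower on the remaining arrays.

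DFR signal was high in both seed coat regions and in whole seeds, intermediate in the peripheral endosperm and lowest in the embryo proper. It was 15671 and 15879 in whole seeds and 83.5 and 64.2 in the embryo proper. In the endosperm it was 338, 148 and 523 in the chalazal region, 3921 and 1417 in the peripheral region, and 340.4 and 882 in the micropylar region. The seed coat regions gave 17479.5, 21184 and 12615 in the chalazal seed coat and 24771 and 26245 in the seed coat. Every one of the 16 values lay above the background bound of its array. Every endosperm array lay below every seed coat region array, as did 4.73% of all tested probe sets.

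BAN was likewise high in the seed coat regions and whole seeds, and on 6 arrays it was not above background. Whole seeds gave 2459 and 2791, and the embryo proper 16.5 and 30.3, both under their bounds of 33.5 and 31.1. The chalazal endosperm gave 6.36, 79.3 and 23.9, all under their bounds of 161.5, 108.5 and 54.8. The peripheral endosperm gave 413 and 206, above the bounds of 61.8 and 80.3, whereas the micropylar endosperm gave 5.40, under its bound of 48.2, and 166, above its bound of 67.8. Signal in the chalazal seed coat was 1759.64, 3888 and 3908, and in the seed coat it was 10159.5 and 7870.06. The peripheral endosperm was thus the endosperm region in which BAN was measured above background on every array.

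UGT80B1 kept to a narrower range, and its groups were not ordered as those of DFR. Its signal was 399 and 405 in whole seeds, 219 and 249 in the embryo proper, 427 and 424 in the peripheral endosperm, 333 and 246 in the micropylar endosperm, and 354 and 460.4 in the seed coat. The widest spread between replicates was in the chalazal regions. The chalazal endosperm gave 60.5, 766 and 613, the first of them under its bound of 161.5, and the chalazal seed coat gave 98.8, 259 and 345. The lowest and the highest of the 16 values were both from the chalazal endosperm.

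**Figure D1:**
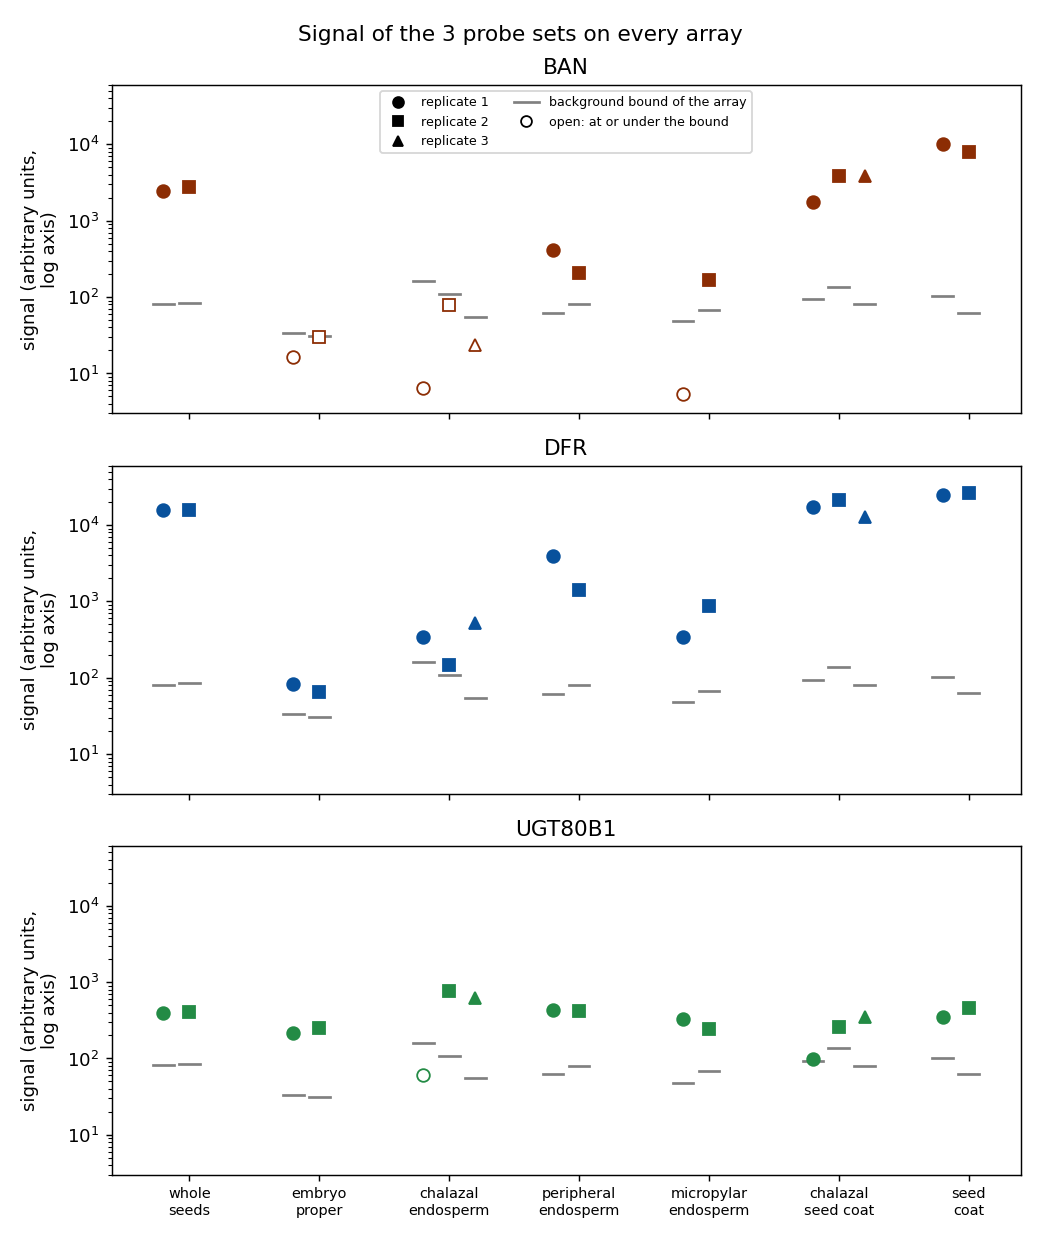
Signal in arbitrary units (log axis) of the DFR, BAN and UGT80B1 probe sets on each of the 16 arrays, by group. Points are arrays with a symbol per replicate, grey ticks are the background bounds, and open points lie at or under them, as 6 do for BAN and 1 does for UGT80B1.

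Differences were tested on log2(signal + 30.2143), centred on the array medians, in 1 limma model over the 19475 probe sets bright enough to be tested, all 3 genes among them, and every adjusted p below is Benjamini-Hochberg adjusted over those. Differences carry the sign of the group named first, and errors on them are SEs. In tissue pieces, fewer cells of a type and less transcript per cell cannot be told apart.

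DFR and BAN were lower in the endosperm regions (7 arrays) than in the seed coat regions (5 arrays), and UGT80B1 did not pass the test, beside 35.2% of all tested probe sets that passed in either direction. The log2 difference was -4.53 ± 0.33 for DFR (adjusted p = 2.01e-11). For BAN it was -5.25 ± 0.40 (adjusted p = 6.4e-11), a model value with no exact size because 4 of the 7 endosperm arrays lay under their bounds. UGT80B1 differed by 0.42 ± 0.46 (95% interval -0.52 to 1.36, adjusted p = 0.517), so a change of up to 1.36 in log2 units in that direction is within the interval.

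**Figure D2:**
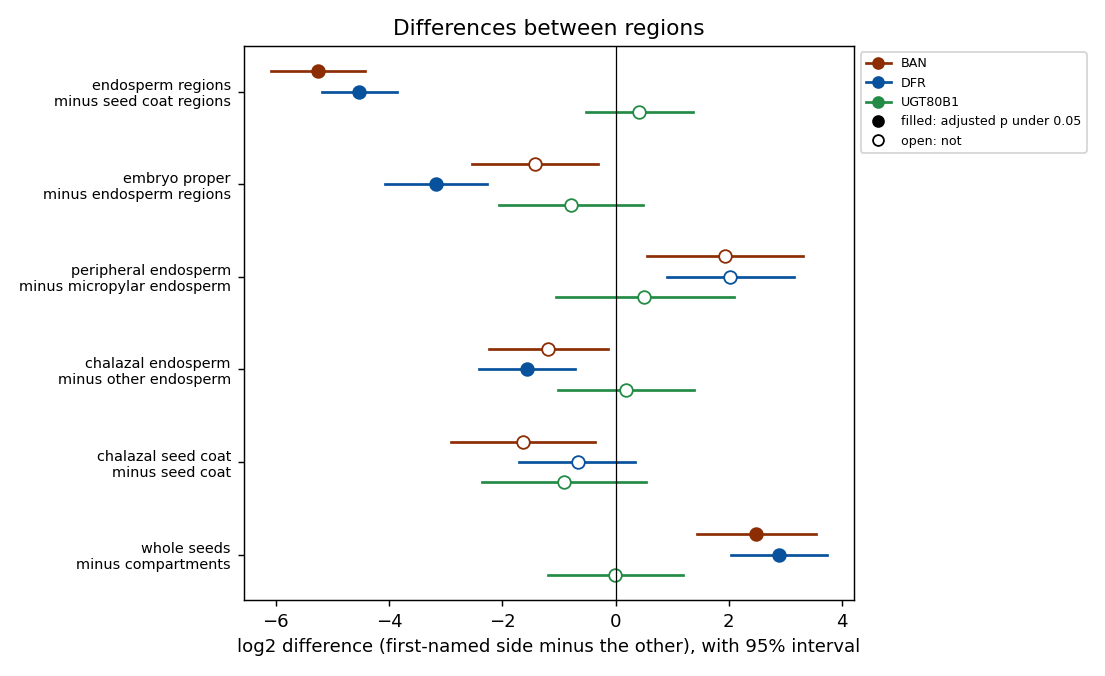
Model differences on the log2 scale between regions, signed for the region above the "minus" of each label, with 95% intervals, for DFR, BAN and UGT80B1. Filled points passed an adjusted p of 0.05. DFR and BAN lie at -4.53 and -5.25 for the endosperm regions minus the seed coat regions, and every UGT80B1 interval includes 0.

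Each endosperm region was also set against the seed coat alone. DFR was lower in all 3, with differences of -5.91 ± 0.50 in the chalazal (adjusted p = 3.21e-10), -3.32 ± 0.55 in the peripheral (5.58e-05) and -5.35 ± 0.55 in the micropylar endosperm (5.38e-08). The background of probe sets that passed was 35.6%, 17.9% and 17.4% in the same order of regions. As a share of its seed coat mean, DFR reached 15.4% and 5.55% on the peripheral arrays, 1.32%, 0.579% and 2.05% on the chalazal arrays, and 1.33% and 3.46% on the micropylar arrays. BAN was at least 53.1-fold lower in the chalazal endosperm than in the seed coat (adjusted p = 9.58e-10), and lower in the peripheral endosperm, at -4.70 ± 0.67 (adjusted p = 9.38e-06). In the micropylar endosperm the BAN difference was -6.64 ± 0.67 (adjusted p = 5.02e-08), again with no exact size because 1 of its 2 arrays was under the bound. BAN reached 4.59% and 2.28% of its seed coat mean on the peripheral arrays. The peripheral endosperm was also lower than the chalazal seed coat in DFR (-2.65 ± 0.50, adjusted p = 0.000185) and in BAN (-3.07 ± 0.62, adjusted p = 0.000391), where 24.9% of probe sets passed.

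Within the endosperm, the peripheral region had more DFR and BAN signal than the chalazal region. The peripheral endosperm was higher by 2.58 ± 0.50 in DFR (adjusted p = 0.000233) and at least 2.04-fold higher in BAN (adjusted p = 0.00877), in a pair where 29.5% of probe sets passed. The BAN difference did not pass without peripheral endosperm replicate 1 (adjusted p = 0.144). Against the peripheral and micropylar regions together, the chalazal endosperm was lower in DFR, at -1.57 ± 0.42 (adjusted p = 0.00404), with 37.6% of probe sets called. BAN, under its bounds on all 3 chalazal arrays, was at least 1.04-fold lower there, which did not pass (adjusted p = 0.0706). It passed without micropylar endosperm replicate 1 or without chalazal endosperm replicate 2 (adjusted p down to 0.00991). UGT80B1 gave 0.19 ± 0.59 (adjusted p = 0.825). This value rests on the dim chalazal endosperm replicate 1: without it the difference was 1.26 (adjusted p = 0.0493), and without either other chalazal endosperm array it turned negative, down to -0.42.

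The peripheral endosperm arrays lay above the micropylar ones in all 3 genes without overlap, as they did in 22.6% of all tested probe sets, but no difference passed. Peripheral minus micropylar, DFR gave 2.03 ± 0.55 (95% interval 0.91 to 3.15, unadjusted p = 0.000929, adjusted p = 0.0724) and BAN 1.94 ± 0.67 (0.56 to 3.32, unadjusted p = 0.00773, adjusted p = 0.261). UGT80B1 gave 0.51 ± 0.77 (adjusted p = 0.96), and 1.01% of all tested probe sets passed. With 2 arrays a side, leaving out 1 array could change the BAN and DFR calls, and never changed that of UGT80B1. The BAN value is a model value, because 1 of the 2 micropylar arrays was under its bound. It passed without micropylar endosperm replicate 2 (adjusted p = 0.0387), which leaves that 1 array and takes its spread from the other groups. DFR passed without chalazal endosperm replicate 2 or 3, which enter only through the shared spread (adjusted p down to 0.0355). The summed seed coat markers were 4068 to 5856 on the peripheral arrays and 3228 to 4886 on the micropylar arrays, which overlapped. Those of the chalazal endosperm were lower, at 533 to 1049.5. MUCI10, itself higher in the endosperm regions than in the seed coat regions, made up 3082 and 2609 of the peripheral sums. Without it, a choice made after seeing the data, the sums were 1459 to 2774 on the peripheral, 2267 to 2752.5 on the micropylar and 441 to 850 on the chalazal endosperm arrays. The part of seed coat tissue or transcript in the endosperm signal of DFR and BAN was not tested. The micropylar minus chalazal differences were 0.55 ± 0.50 for DFR (adjusted p = 0.423) and, for BAN, without a size because 4 of the 5 arrays were under their bounds (adjusted p = 0.817), beside 29.7% of probe sets called.

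The embryo proper had less DFR than each endosperm region. Against the mean of the endosperm regions its DFR difference was -3.17 ± 0.44 (adjusted p = 1.38e-05), beside 13.8% of probe sets called. By region, DFR was lower in the embryo proper than in the chalazal (-2.13 ± 0.50, adjusted p = 0.00133), peripheral (-4.71 ± 0.55, 3.44e-06) and micropylar endosperm (-2.68 ± 0.55, 0.00535). Probe sets called in these pairs were 41.3%, 5.72% and 2.78%, in that order of regions. The micropylar difference did not pass when either embryo proper array or micropylar endosperm replicate 2 was left out (adjusted p up to 0.103). BAN was not above background in the embryo proper, so its fold sizes there are bounds. It was at least 5.87-fold lower in the embryo proper than in the peripheral endosperm (adjusted p = 0.0106), a call lost without either embryo proper array or peripheral endosperm replicate 1 (adjusted p up to 0.185). Against the mean of the endosperm regions BAN was at least 2.28-fold lower, which did not pass (adjusted p = 0.0808). It passed without micropylar endosperm replicate 1 or chalazal endosperm replicate 1 (adjusted p down to 0.0187). Against the seed coat, where 18.4% of probe sets passed, DFR was 262-fold lower in the embryo proper (-8.03 ± 0.55, adjusted p = 4.77e-11) and BAN at least 153-fold lower (adjusted p = 4.78e-09). UGT80B1 differed by -0.78 ± 0.62 between the embryo proper and the mean of the endosperm regions (adjusted p = 0.414).

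Both seed coat regions carried DFR and BAN, and no difference between them passed, where 10.8% of probe sets did. Chalazal seed coat minus seed coat, DFR gave -0.67 ± 0.50 (95% interval -1.7 to 0.35, adjusted p = 0.466), BAN -1.63 ± 0.62 (-2.9 to -0.37, adjusted p = 0.0923) and UGT80B1 -0.91 ± 0.70 (-2.35 to 0.53, adjusted p = 0.483). In all 3 genes every chalazal seed coat array was below every seed coat array, as in 19.3% of all tested probe sets. The marker DELTA-VPE, a vacuolar cysteine protease of the inner seed coat, separated these regions far more, at -6.48 ± 0.49 (adjusted p = 3.53e-10). BETA-VPE, a related vacuolar processing enzyme, ran the other way, at 2.40 ± 0.51 (adjusted p = 0.00176). Whether the chalazal effect within the endosperm differed from that within the seed coat was tested as a difference of differences, and none passed: 0.45 ± 0.80 for BAN (adjusted p = 0.748), -0.89 ± 0.65 for DFR (0.369) and 1.10 ± 0.92 for UGT80B1 (0.44).

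Whole seeds stood above the mean log2 level of the 6 compartments in DFR and BAN, and UGT80B1 did not pass. That mean counts each compartment equally and on the log2 scale, so it is not the level of the mixed tissue. A gene high in few compartments can exceed it without any excess over the mixture, and the comparison cannot tell these apart. The difference was 2.89 ± 0.41 for DFR (adjusted p = 5.58e-05) and 2.49 ± 0.51 for BAN (adjusted p = 0.00337), and UGT80B1 gave -0.01 ± 0.58 (adjusted p = 0.996), beside 3.57% of probe sets called. The BAN call was lost when either whole seed array was left out (adjusted p up to 0.124). Whole seed signal came to 61.4% and 62.2% of the seed coat mean for DFR and to 27.3% and 31.0% for BAN. Neither gene passed against the seed coat (DFR -1.0 ± 0.55, adjusted p = 0.537, and BAN -2.06 ± 0.67, adjusted p = 0.151), where 1.89% of probe sets did.

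Ordered by mean log2 level from low to high, DFR ran from the embryo proper (6.57 ± 0.16, SD, n = 2) through the chalazal (8.70 ± 0.83, n = 3), micropylar (9.25 ± 0.73, n = 2) and peripheral endosperm (11.28 ± 1.00, n = 2), whole seeds (13.61 ± 0.04, n = 2) and chalazal seed coat (13.94 ± 0.45, n = 3) to the seed coat (14.61 ± 0.12, n = 2). Among neighbours in that order, whole seeds differed from the peripheral endosperm (2.33 ± 0.55, adjusted p = 0.00619, 10.6% of probe sets called) and the embryo proper from the chalazal endosperm. The other neighbours did not pass, whole seeds and chalazal seed coat included (-0.32 ± 0.50, adjusted p = 0.761, 8.17% called). For BAN an order can be given for the groups above background on every array. It ran from the peripheral endosperm (8.40 ± 0.62, n = 2) through whole seeds (11.04 ± 0.07, n = 2) and chalazal seed coat (11.47 ± 0.46, n = 3) to the seed coat (13.10 ± 0.20, n = 2). The embryo proper, chalazal endosperm and micropylar endosperm, with 2 of 2, 3 of 3 and 1 of 2 BAN values under the bounds, have no order among themselves. Among the neighbours measured for BAN, whole seeds differed from the peripheral endosperm (2.64 ± 0.67, adjusted p = 0.0118) and the others did not pass. Both of these calls against the peripheral endosperm were lost without peripheral endosperm replicate 2 or either whole seed array (adjusted p up to 0.216 for DFR and 0.19 for BAN).

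UGT80B1 gave an order of its own, with mean log2 levels from 8.89 ± 0.01 (SD, n = 2) in the peripheral endosperm to 7.82 ± 0.62 (n = 3) in the chalazal seed coat. None of the 13 pairs of groups examined for the order passed for this gene, with differences from -0.97 to 1.08. In 2 of them UGT80B1 passed when chalazal endosperm replicate 1 was left out: embryo proper minus chalazal endosperm (-1.98, adjusted p = 0.00812) and micropylar minus chalazal endosperm (-1.52, adjusted p = 0.0476). Across the 16 arrays the log2 levels of BAN and DFR correlated at Pearson r = 0.947. Those of BAN and UGT80B1 correlated at 0.015, and those of DFR and UGT80B1 at -0.052. The arrays fall into groups, so these coefficients describe mainly the groups.

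Since DFR and BAN act in successive stretches of 1 pathway, the within-array difference of their log2 levels was compared between regions. The centring of the arrays cancels in that difference, but the offset does not. BAN minus DFR averaged -2.68 ± 0.98 (SD, n = 7) in the endosperm regions and -2.09 ± 0.79 (SD, n = 5) in the seed coat regions. The regions differed by -0.59, which did not pass an exact two-sided permutation test over arrays (p = 0.303, 792 arrangements, smallest possible p 0.00126). The permutation moves arrays freely although they are nested in dissected regions. Differences among the regions of a side therefore enter its spread, and each array counts equally. With the 3 endosperm arrays on which both genes were above background, a choice made after seeing the data, the difference was -0.58 (exact permutation p = 0.304). That choice keeps endosperm arrays by their BAN signal and keeps none from the chalazal endosperm. It therefore cannot decide whether BAN was lower relative to DFR in the endosperm. BAN was under its bound on the other 4 endosperm arrays, so the size over all 7 rests on dim values. It ran from -1.47 to -0.58 over the alternatives (p = 0.117 to 0.304 in the exact permutation test) and from -0.92 to -0.39 on leaving out each array (p = 0.0519 to 0.527).

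Few other genes of the pathway could be followed, because 6 of 44 listed flavonoid genes had a probe set that names 1 gene in the annotation used here. No listed regulator, transporter or phenylpropanoid enzyme was among them. Of these 6, 2 were higher and 3 lower in the endosperm regions than in the seed coat regions, beside 35.2% of all tested probe sets called (3852 higher and 2996 lower), and their median difference was -0.99, against 0.19 over all tested probe sets. CHIL, a chalcone isomerase-like protein that promotes flavonoid synthesis, was lower, at -5.32 ± 0.38 (adjusted p = 1.66e-11). The flavonol rhamnosyltransferase UGT78D1 was lower, at -4.11 ± 0.40 (adjusted p = 4.13e-09), as was the anthocyanin glucosyltransferase UGT75C1, at -1.44 ± 0.40 (adjusted p = 0.0061). The flavonoid glucosyltransferase UGT78D2 (1.94 ± 0.37, adjusted p = 0.00014) and the flavonol rhamnosyltransferase UGT89C1 (1.60 ± 0.40, adjusted p = 0.00244) were higher in the endosperm regions, and the anthocyanin xylosyltransferase UGT79B1 gave -0.54 ± 0.42 (adjusted p = 0.348). These are model values with no exact size, except that of UGT78D1, because 4 of 7 endosperm arrays for CHIL, 5 of 7 for UGT75C1 and UGT79B1, 4 of 5 seed coat region arrays for UGT78D2 and all 5 for UGT89C1 lay under their bounds.

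Between the peripheral and the micropylar endosperm CHIL had the direction of DFR and BAN, without passing, whereas UGT78D1 was lower in the peripheral region. CHIL signal was 472 and 169 in the peripheral and 32.9 and 134 in the micropylar region (1.62 ± 0.64, adjusted p = 0.384), against 7359.58 and 7774 in the seed coat. UGT78D1 signal was 439 and 179 in the peripheral and 5652 and 815 in the micropylar region (-2.82 ± 0.66, adjusted p = 0.0289), against 33130.2 and 22296 in the seed coat. Its call was lost without either peripheral array or micropylar endosperm replicate 1 (differences between -4.32 and -1.31). UGT78D1 signal was also 7868 and 4625 in the embryo proper. The summed embryo markers were 2366 on micropylar endosperm replicate 1, which gave the 5652, and 625 on replicate 2. The part of embryo tissue or transcript in the micropylar signal of UGT78D1 was not tested. In the chalazal seed coat minus the seed coat, CHIL gave -0.56 ± 0.58 (adjusted p = 0.631) and UGT78D1 was lower, at -2.27 ± 0.61 (adjusted p = 0.0128), a call lost without chalazal seed coat replicate 2 or either seed coat array (adjusted p up to 0.172).

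For UGT80B1 the matching list held 27 genes of sterol synthesis and conjugation, of which 2 were named and tested. UGT80A2, the other sterol glucosyltransferase of Arabidopsis, was higher in the endosperm regions than in the seed coat regions by 0.93 ± 0.36 (adjusted p = 0.045), a call lost on leaving out any 1 of 12 of the 16 arrays (difference 0.57 to 1.28, adjusted p up to 0.324). The mean log2 level of UGT80A2 was 9.72 in the chalazal, 9.05 in the peripheral and 7.75 in the micropylar endosperm. The micropylar level was below those of the seed coat (7.82) and the chalazal seed coat (8.0). The cyclopropyl isomerase CPI1 gave -0.23 ± 0.42 (adjusted p = 0.715).

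Of the 5 seed coat markers tested, 1 was higher and 4 lower in the endosperm regions than in the seed coat regions, against the same 35.2%. SBT1.7, a mucilage-modifying subtilase, was lower, at -3.92 ± 0.45 (adjusted p = 8.6e-08), as were BETA-VPE, at -3.71 ± 0.34 (1.3e-09), and DELTA-VPE, at -1.0 ± 0.32 (0.016). MUCI21, a gene of mucilage synthesis, was at least 1.54-fold lower (adjusted p = 0.000509). Its signal was above the bound only on the 3 chalazal seed coat arrays (275 to 471). On both seed coat arrays it was under the bound (70.8 and 45.6), so the difference rests on the chalazal seed coat. MUCI10, a mucilage galactosyltransferase, was higher by 1.54 ± 0.37 (adjusted p = 0.00153), but not in every endosperm region. Its mean log2 level was 11.55 in the peripheral, 10.59 in the micropylar and 7.88 in the chalazal endosperm. The seed coat had 9.32 and the chalazal seed coat 7.61. DELTA-VPE was not lower in each endosperm region than in both seed coat regions: in the endosperm its mean log2 level was 8.76 (chalazal), 10.68 (peripheral) and 11.11 (micropylar), where the seed coat had 14.42 and the chalazal seed coat 7.95. The DELTA-VPE call was lost when any 1 of 5 arrays was left out: replicate 2 of the peripheral or micropylar endosperm or of the chalazal seed coat, or either seed coat array (adjusted p up to 0.077). Peripheral minus micropylar, DELTA-VPE gave -0.42 ± 0.54 (adjusted p = 0.95) and SBT1.7 0.18 ± 0.75 (adjusted p = 0.997). DELTA-VPE signal was 2249 and 1062 in the peripheral endosperm, 2436 and 1758 in the micropylar endosperm, and 22961 and 21923 in the seed coat.

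**Figure D3:**
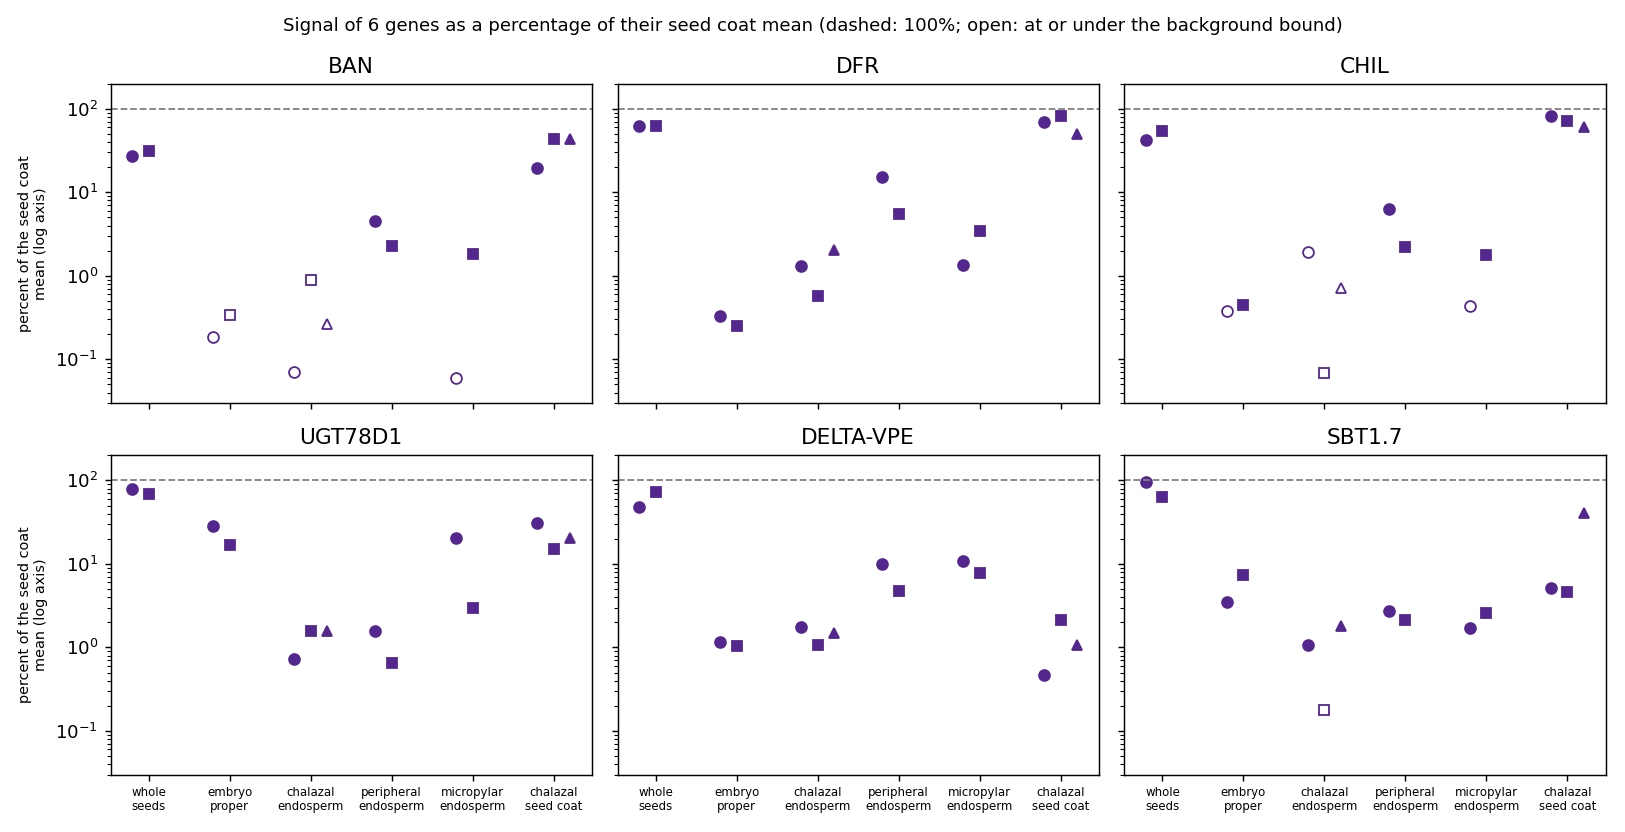
Signal of DFR, BAN and 4 other genes (CHIL, UGT78D1, DELTA-VPE and SBT1.7) as a percentage of each gene's seed coat mean (log axis). Points are arrays outside the seed coat group, with 1 symbol per replicate. Open points lie at or under the background bound. In the peripheral endosperm DFR stands at 15.4% and 5.55% and BAN at 4.59% and 2.28%, above their micropylar arrays, while DELTA-VPE overlaps between those regions.

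To place DFR and BAN among seed coat transcripts in general, the probe sets called at least 8-fold higher in the seed coat than in the embryo proper were taken, 753 in all. They were described on the arrays of other groups, which entered that choice through the shared spread and the filter. The peripheral minus micropylar difference of the 753 probe sets had a median of 0.22 and quartiles of -0.34 and 0.86. Over all tested probe sets the median was 0.03. It was positive in 61.2% of them and in 51.7% of all tested probe sets. DFR, at 2.03, lay at percentile 96.9 of the set, BAN, at a model value of 1.94, at percentile 95.8, and CHIL, at a model value of 1.62, at percentile 92.2. For chalazal minus micropylar endosperm the set had a median of 0.52, with DFR at -0.55 (percentile 19.3). BAN, under its bounds on 4 of those 5 arrays, was not ranked there.

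**Figure D4:**
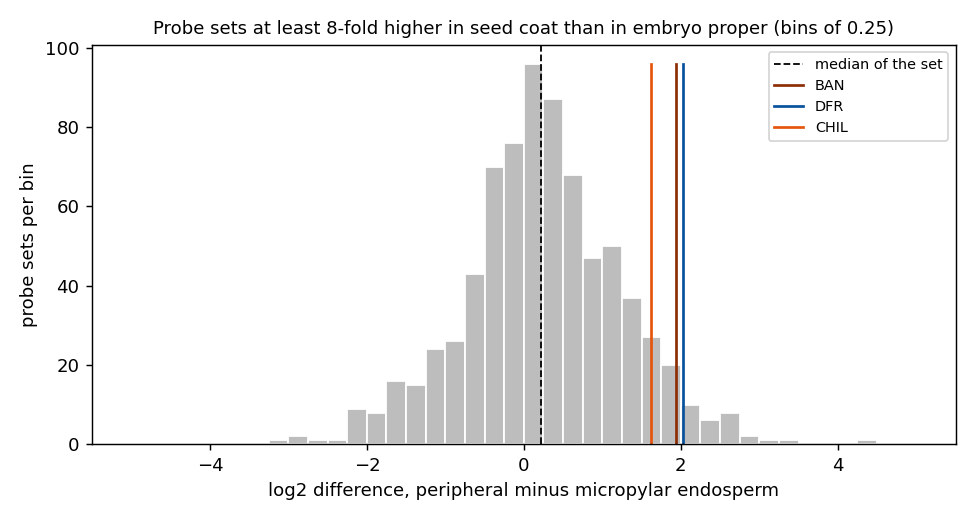
Peripheral minus micropylar log2 differences of the 753 probe sets called at least 8-fold higher in the seed coat than in the embryo proper, in bins of 0.25. The dashed line is the set's median of 0.22, and solid lines mark CHIL (1.62), BAN (1.94) and DFR (2.03), all above the set's upper quartile of 0.86. The BAN and CHIL values are model values, each with 1 micropylar array under its bound.

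The genes with the most similar profiles were found by Pearson correlation of log2 levels over the 16 arrays, among 11273 probe sets naming 1 gene. For DFR they were AT2G17710 (r = 0.987), AT2G38900 (0.979), CHIL (0.970), the flavin monooxygenase FMO (0.968) and AT2G14900 (0.962). For BAN they were RING1 (0.963), SIM (SIAMESE, an inhibitor of cyclin-dependent kinases; 0.962), AT1G34580 (0.962), FMO (0.960) and AT2G17710 (0.956). FMO averaged 280.3 in the peripheral and 89.1 in the micropylar endosperm, and 7507 in the seed coat. AT2G17710, on both lists, averaged 832 in the peripheral, 476 in the micropylar and 192 in the chalazal region of the endosperm, and 9396 in the chalazal seed coat. The coefficients for UGT80B1 were lower, the highest being AT5G58950 (0.863), AT2G20390 (0.828), AIM1 (0.818), AT5G54520 (0.807) and RST1 (0.789). RST1, required for normal cuticular wax, was as low as 15.25 and as high as 1004 within the 3 chalazal endosperm arrays, the group in which UGT80B1 itself varied most. There AT2G20390 ran from 108.8 to 1064 and AT5G54520 from 22.98 to 663.3. AT5G58950 (478.7 to 1545) and AIM1 (696.7 to 1801) ranged less. The coefficients for DFR and BAN describe mainly the groups. Whether those for UGT80B1 rest on a few chalazal arrays was not tested.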

How the data were processed

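Transcripts were measured on 16 Affymetrix ATH1 arrays with amplified, biotin-labelled RNA. The authors processed the arrays with GCOS, per the submitters' processing notes, and neither its version nor its settings are given here. What they deposited is linear signal intensity, and every array had a mean of 500.04 to 500.08 once 2% of its values at each end were set aside. The highest array median, 185.4, was 1.85 times the lowest, 100.01, so levels were taken as log2(signal + 30.2143), the offset being the 25th percentile of the deposited intensity, and centred on each array's median. Tests took the probe sets that were above the 40th percentile of at least 2 arrays, which kept 19475 of 22746 and left out 3271 and 64 controls. One model with 7 group means was fitted with limma 3.58.1 (eBayes with trend) in R 4.3.3, two-sided, with Benjamini-Hochberg adjustment at 0.05, and was tested on simulated data. The number of arrays limits the precision. Where every array of the lower side lay at or under its background bound, the fold is given as "at least", against that bound, if the bound allows one. Other sizes for dim values are model values.

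Symbols come from the platform annotation: 13513 probe sets name 1 gene, 503 several and 8730 none, and 13436 were matched to TAIR10.1 loci, used for names only. No source used here names the genome build of the probe sets, and no coordinates or sequences are given. Named genes are the 3 genes, the tested genes of the marker and pathway lists, and the 5 most similar profiles per gene; not all are printed. These genes and lists were chosen with earlier results of these data known. Replicate numbers were checked for pairing: in 0 of 21 pairs of groups did the same-numbered arrays deviate together, with correlations above 0.1 (range -0.044 to 0.096). The labels state no pairing either, so replicate numbers were not used as pairs. In groups of 2 arrays the deviations of the replicates are mirror images, so the check cannot show that pairing is absent. Alternatives were the array scaling, the offset, the filter, array weights, the replicate block, the groups in the fit and leaving out each array.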

Additional observations from a re-analysis of the deposited data

How the results depend on the processing

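The DFR and BAN differences between the endosperm and the seed coat regions kept direction and call in every alternative run (DFR -4.75 to -4.45, BAN -6.14 to -5.23) and on leaving out each array (DFR -4.76 to -4.29, BAN -5.62 to -4.88). With 2 or 3 arrays a group, other calls moved, and the cause was not tested. Without median centring, with quantile normalisation and without the filter, BAN in the chalazal minus the other endosperm passed, at -1.45 (adjusted p = 0.0334), -1.45 (0.0386) and -1.39 (0.0401). With an offset of 1, BAN in whole seeds minus compartments did not pass (3.09, adjusted p = 0.0626), nor did BAN in whole seeds minus peripheral endosperm (0.154). With array weights, BAN in embryo proper minus endosperm (-1.39, adjusted p = 0.00581), DFR in peripheral minus micropylar endosperm (2.03, adjusted p = 0.0109) and BAN in whole seeds minus seed coat (0.019) passed. With only the compared groups in the fit, BAN in the chalazal seed coat minus the seed coat passed (-1.63, adjusted p = 0.0184), and UGT78D1 in peripheral minus micropylar endosperm did not (0.267). BAN in embryo proper minus peripheral endosperm missed the threshold with quantile normalisation (0.0503) and with an offset of 1 (0.0597).

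The sign of small differences turned. For UGT80B1 in the chalazal minus the other endosperm it was -0.08 without centring and -0.02 without the filter; in whole seeds minus compartments 0.36 without centring, 0.15 with quantile normalisation and 0.11 with the stricter filter; in chalazal endosperm minus seed coat -0.27, -0.07 (quantile), -0.13 (no filter) and -0.02 (weights); and in peripheral minus chalazal endosperm -0.09 with the stricter filter. BAN in embryo proper minus chalazal endosperm was 0.02 with quantile normalisation. With the replicate block, the UGT80B1 values were -0.18, 0.11 and -0.28 for the first 3 of these comparisons; the replicate block changed no call of the 3 genes. The shift of all tested probe sets between endosperm and seed coat regions had a median of 0.19, and of -0.02 without centring, where 2886 were higher and 3651 lower in place of 3852 and 2996.

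Leaving out each array gave BAN -1.74 to -0.64 (chalazal minus other endosperm), -1.79 to -1.05 (embryo proper minus endosperm), 0.84 to 3.04 (peripheral minus micropylar), 2.31 to 2.67 (whole seeds minus compartments), -1.95 to 0.26 (embryo proper minus micropylar) and -0.89 to 1.32 (micropylar minus chalazal endosperm). DFR gave 1.32 to 2.74 (peripheral minus micropylar). UGT80B1 gave -0.42 to 1.26 (chalazal minus other endosperm), -0.19 to 0.09 (whole seeds minus compartments), -0.52 to 1.17 (chalazal endosperm minus seed coat), -1.52 to 0.17 (micropylar minus chalazal), -1.0 to 0.68 (peripheral minus chalazal), -0.06 to 0.38 (peripheral minus seed coat) and -1.98 to -0.29 (embryo proper minus chalazal endosperm). DELTA-VPE gave -0.94 to 0.09 (peripheral minus micropylar). The number of probe sets called in whole seeds minus compartments was 696, and 412 with an offset of 1, 1446 with weights and 170 to 856 on leaving out arrays. For peripheral minus micropylar endosperm it was 197, against 64, 430 and 20 to 237, and 61 with only those groups in the fit. For embryo proper minus endosperm it was 2679, against 6637 with weights and 779 to 3080 on leaving out arrays. For chalazal seed coat minus seed coat it was 2112, against 974 to 2450. Values under the background bounds (6 of 16 for BAN) have no order, and the BAN differences given here for groups with such arrays are model values. The within-array difference between BAN and DFR did not pass in any alternative.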
